A study of Mus musculus with 12 samples.

Results

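The comparison described here set mammary glands with a Cre-mediated deletion of JNK1 and JNK2 in the milk-making epithelium against control glands on the third day of involution, the regression of the gland after the pups are taken away. It covers 6 of the 12 RNA-seq libraries of the series, 3 of JNK KO and 3 of JNK WT glands, chosen by the genotype and day of their labels and not by any measured value. Of 37754 gene models with values, 14512 passed the filter on low values (3 or more of the 12 libraries at or above 0.5 FPKM) and were tested. JNK KO mice carried Wap-Cre together with LoxP-flanked alleles of Mapk8 (encoding JNK1) and Mapk9 (encoding JNK2), and the labels give them as JNK-/-. JNK WT mice, the wild type of the labels, carried Wap-Cre alone, so the Cre transgene was shared by all groups. All were C57BL/6 females bred at 10 to 12 weeks of age that had nursed for 9 days before the pups were removed for 3 days. The glands of the day 0 libraries, which enter the statistical fit but not this comparison, were taken at the end of those 9 days. The Wap promoter drives Cre in the secretory epithelium of late pregnancy and lactation, so fat, fibroblasts, vessels, nerves, muscle and immune cells in the same whole gland keep intact Mapk8 and Mapk9.

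Milk stasis starts involution. Within days the secretory cells stop making milk, many die and are shed or engulfed, proteases remodel the surrounding matrix, and fat cells refill the space. LIF and STAT3 drive the early phase and induce acute phase proteins, while the loss of prolactin signalling through STAT5 ends the expression of milk genes. JNK is a stress-activated kinase that phosphorylates JUN and related subunits of the AP1 transcription factor, which controls stress, death and protease genes.

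Values are FPKM (fragments scaled to transcript length and to the mapped fragments of the library) in whole-gland RNA, so fewer cells of a type and less RNA per cell cannot be told apart. Libraries are named by the numbers of their deposited columns (3, 4 and 6 for JNK KO and 3, 6 and 12 for JNK WT), always given in that order. The p-values rest on the spread between libraries within groups, pooled over all 12 libraries of the fit, those of day 0 included. Across genes, the correlation of log2 values was 0.935 to 0.946 between JNK KO libraries, 0.916 to 0.965 between JNK WT libraries and 0.856 to 0.918 between genotypes. Differences are log2(FPKM + 0.1) in JNK KO minus JNK WT, fitted with limma over 14512 genes with Benjamini-Hochberg adjustment, and a gene is called where its adjusted p is under 0.05. The study's methods call the 3 libraries of each group independent, and n = 3 per group except where libraries are said to be left out. Loci are those of the table, on GRCm38, and may span neighbouring genes that the authors' assembly joined.

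JNK WT libraries 3 and 6 held far more skeletal muscle RNA than the other 4. The summed level of the sarcomere genes (the contractile apparatus of striated muscle) was 173, 166 and 471 FPKM in JNK KO glands, against 14380, 14670 and 1291 FPKM in JNK WT glands. A second list of muscle genes for energy metabolism and calcium handling summed to 303, 914 and 1135 FPKM in JNK KO glands, against 11920, 10290 and 3240 FPKM in JNK WT glands. Ckm, the muscle creatine kinase, was at 0.246, 0 and 20.7 FPKM in JNK KO glands, against 1288, 1275 and 79.5 FPKM in JNK WT glands. JNK WT library 12 thus sat far below JNK WT libraries 3 and 6 and still above every JNK KO library for both sums. The epithelial keratins Krt8 and Krt18 and the adhesion molecule Epcam were high in all 6 libraries, and the summed luminal epithelial list was 1914, 1538 and 2304 FPKM in JNK KO glands, against 1745, 1823 and 1758 FPKM in JNK WT glands. The level of the luminal list therefore overlapped between the genotypes.

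**Figure D1:**
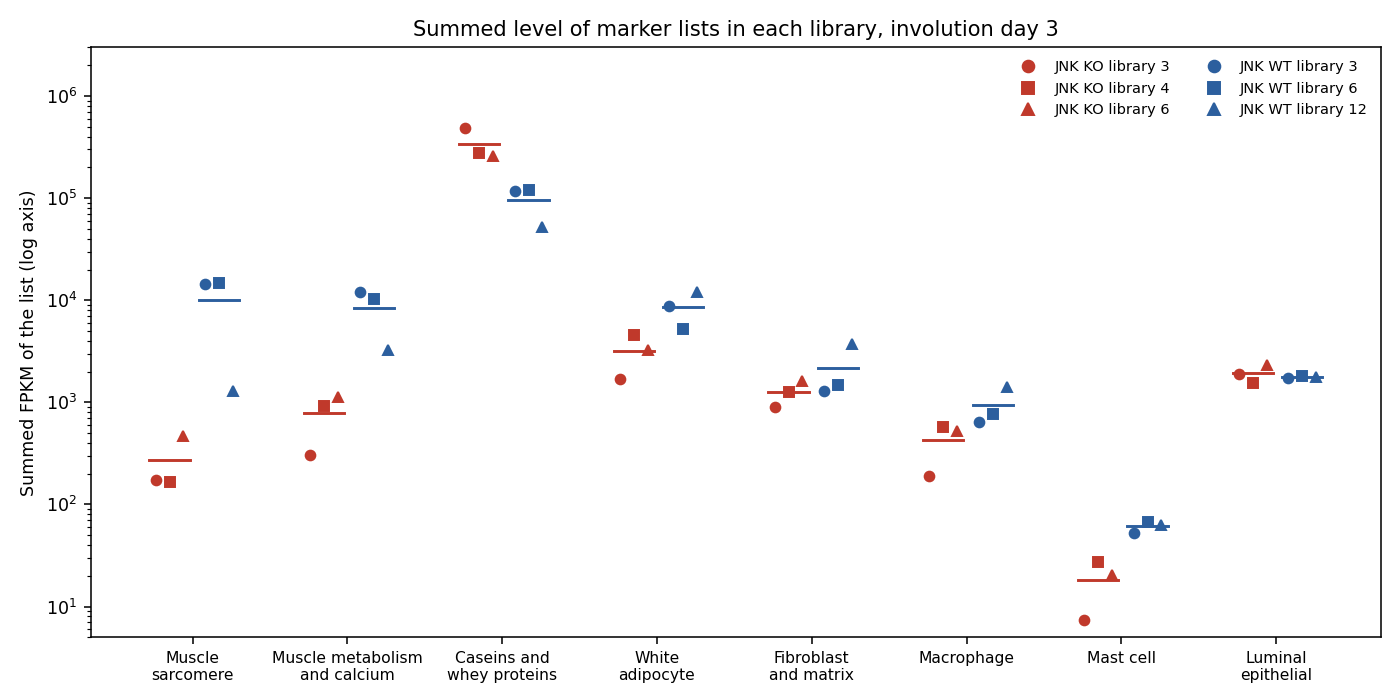
Summed FPKM of 8 marker lists in each day 3 library on a log axis. Points are libraries (red JNK KO, blue JNK WT) and bars are group means. Both muscle lists are highest in JNK WT libraries 3 and 6, the casein and whey list is higher in every JNK KO library, and the luminal list overlaps.

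The values of the table were shifted as a whole between the genotypes. As deposited, the median log2 difference over all tested genes was -0.48, and 14.1% of the genes had a difference above 0. After median ratio scaling, which brings the typical gene of all libraries to 1 common level, the median was 0.01 and 51.5% of the differences were above 0. As deposited, 79 genes were called higher in JNK KO glands (0.544% of those tested) and 815 were called lower (5.62%), while 3620 had an unadjusted p under 0.05. After scaling 49 genes were called higher (0.338%) and 17 lower (0.117%), with 2056 at an unadjusted p under 0.05. Of the genes called as deposited, 36 higher and 17 lower genes were also called after scaling, and 13 genes, all higher, were called after scaling alone. All 79 higher genes kept a positive sign and all 815 lower genes a negative sign under scaling. Scaling divides each library by 1 factor, at 1.38, 1.91 and 2.05 for JNK KO and 2.40, 2.34 and 2.80 for JNK WT. It therefore raises most differences, so the kept signs of the higher genes are not a separate check. The lower genes were picked for clearly negative differences, so their signs are little check either. At the study's threshold (adjusted p under 0.01 and an absolute log2 difference above 1) 12 genes were higher (0.0827%) and 22 lower (0.152%).

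The number of calls rested on single libraries. It was 17 higher and 37 lower genes without JNK KO library 3, 40 and 161 without JNK KO library 4, 58 and 781 without JNK KO library 6, 17 and 27 without JNK WT library 3, 23 and 84 without JNK WT library 6, and 50 and 519 without JNK WT library 12. Without both JNK WT libraries rich in muscle, which leaves 1 JNK WT library assumed to vary like the others, 8 genes were called higher and 1 lower, and after scaling 4 higher and 0 lower (514 lower at an unadjusted p under 0.05). Of the 53 genes called in both fits, 22 (11 higher and 11 lower) were called as deposited whichever of the 12 libraries was left out. With scaling and each day 3 library left out in turn, 2 genes, Aqp3 and Gm13381, were called in all 6 fits.

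**Figure D2:**
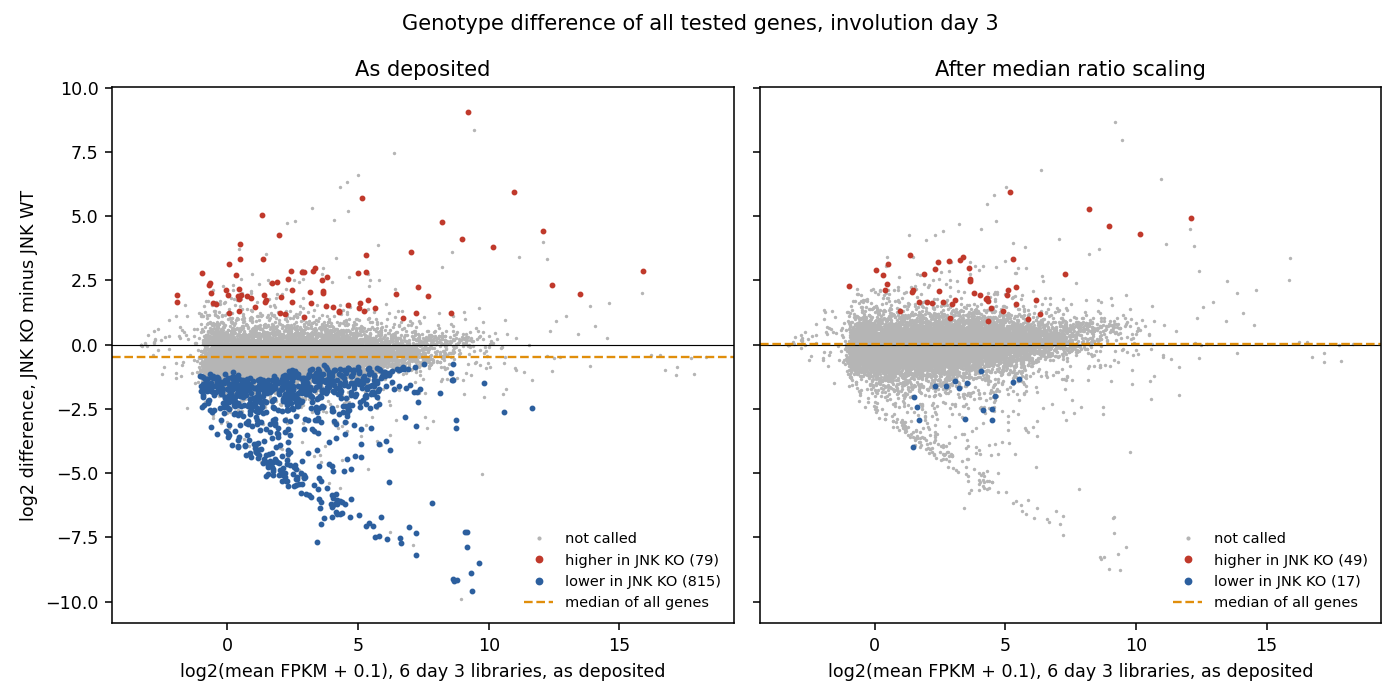
The log2 difference of every tested gene, JNK KO minus JNK WT, against its mean level over the 6 day 3 libraries, as deposited (left) and after median ratio scaling (right). Coloured points are called genes, and the dashed line is the median of all genes at -0.48 on the left and 0.01 on the right. Most of the 815 lower calls on the left are not called on the right, which has 17 lower and 49 higher calls. The uppermost red point on the left is Gm25732, a predicted gene model outside the naming rule.

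The targeted genes were read first. Mapk8 was at 1.25, 3.57 and 2.79 FPKM in JNK KO glands, against 7.37, 6.57 and 7.9 FPKM in JNK WT glands (locus chr14:33377898-33447158). The Mapk8 difference was -1.60 on the log2 scale (SE 0.44, adjusted p = 0.051) and -1.07 after scaling (adjusted p = 0.216). Mapk9 was at 5.26, 10.5 and 10 FPKM in JNK KO glands, against 18.1, 16.1 and 17.8 FPKM in JNK WT glands (locus chr11:49846751-49886421). The Mapk9 difference was -1.06 on the log2 scale (SE 0.49, adjusted p = 0.199) and -0.55 after scaling (adjusted p = 0.551). Neither difference passed the test, although for both genes the highest JNK KO library was under the lowest JNK WT library in both scalings. As deposited, 43.9% of all tested genes had that order and 2.81% the opposite one, and after scaling the shares were 15.2% and 17.7%. The values are gene totals, so transcripts with and without the deleted exons are counted together. Of 15 kinases, scaffolds and phosphatases of the JNK pathway, 0 were higher and 1 was lower as deposited. Over all tested genes 5.62% were called lower. The median of the list was -0.65, beside -0.48 for all genes. The lower gene was Dusp16, a phosphatase that dephosphorylates JNK, at 0.794, 1.48 and 2.5 FPKM in JNK KO glands, against 7.55, 6.89 and 6.45 FPKM in JNK WT glands. The Dusp16 difference was -2.19 on the log2 scale (SE 0.59, adjusted p = 0.05, under the threshold before rounding) and -1.65 after scaling (adjusted p = 0.148).

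Genes of milk secretion stood higher in JNK KO glands. The casein and whey list holds caseins, whey proteins and other products of the secretory cell, among them the acute phase gene Saa3, described further on, and the intracellular enzyme gene Olah. Of its 15 genes, all tested, 8 (Csn1s2b, Wap, Lalba, Glycam1, Cel, Lpo, Saa3 and Olah) were called higher and 0 lower as deposited. In 13 every JNK KO library was above every JNK WT library, beside 2.81% of all tested genes. Their median log2 difference was 2.01 as deposited, beside -0.48 for all genes, and 2.52 after scaling, beside 0.01, when 3 (Glycam1, Cel and Olah) passed the test. The summed level of the list was 487200, 279200 and 257500 FPKM in JNK KO glands, against 117800, 120100 and 51930 FPKM in JNK WT glands.

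Glycam1, which encodes a mucin-like milk glycoprotein, was at 14030, 4130 and 6754 FPKM in JNK KO glands, against 587, 533 and 132 FPKM in JNK WT glands (locus chr15:103562762-103565078). The Glycam1 difference was 4.40 on the log2 scale (SE 0.62, adjusted p = 0.00699) and 4.92 after scaling (adjusted p = 0.0256). The lowest JNK KO library stood above the highest JNK WT library. Glycam1 was called in all 12 fits that leave out a library as deposited. With scaling it was called in 2 of the 6 fits that leave out a day 3 library. Cel encodes the bile salt-stimulated lipase of milk and was at 1021, 805 and 1003 FPKM in JNK KO glands, against 97.4, 82.4 and 20.7 FPKM in JNK WT glands (locus chr2:28555795-28583751). The Cel difference was 4.09 on the log2 scale (SE 0.54, adjusted p = 0.00555) and 4.60 after scaling (adjusted p = 0.00932). Olah encodes the thioesterase that ends fatty acid synthesis at a medium chain length in mammary epithelium and was at 64.1, 67.3 and 74.9 FPKM in JNK KO glands, against 13, 13.8 and 4.7 FPKM in JNK WT glands (locus chr2:3341982-3366591). The Olah difference was 2.84 on the log2 scale (SE 0.36, adjusted p = 0.00555) and 3.33 after scaling (adjusted p = 0.00932). Neither Cel nor Olah overlapped between the genotypes. JNK WT library 12, the one with the least muscle, had the lowest level of all 3 genes. Leaving out both muscle-rich JNK WT libraries leaves library 12 alone, so the differences grow because it is the lowest. They were 5.79 for Glycam1, 5.50 for Cel and 3.84 for Olah, each against 1 JNK WT library.

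Wap, Lalba, Csn1s2b and Lpo were called as deposited and did not pass after scaling. Wap, the whey acidic protein and the gene whose promoter drives the Cre here, was at 142600, 90770 and 81490 FPKM in JNK KO glands, against 25620, 22150 and 4797 FPKM in JNK WT glands. The Wap difference was 2.87 on the log2 scale (SE 0.69, adjusted p = 0.0324) and 3.38 after scaling (adjusted p = 0.134). Lalba, the lactalbumin subunit of lactose synthase, was at 13340, 6606 and 7390 FPKM in JNK KO glands, against 1855, 1998 and 1371 FPKM in JNK WT glands (log2 difference 2.33, adjusted p = 0.0156, and 2.85 after scaling, adjusted p = 0.0743). The casein gene Csn1s2b was called at 1.95 (adjusted p = 0.0418, and 2.47 after scaling, adjusted p = 0.166) and the antimicrobial enzyme gene Lpo at 2.81 (adjusted p = 0.0377, and 3.20 after scaling, adjusted p = 0.056). The main beta-casein gene Csn2 had 135900, 71260 and 73290 FPKM in JNK KO glands, against 33920, 33960 and 9525 FPKM in JNK WT glands, which did not overlap, and its difference of 2.01 missed the threshold (adjusted p = 0.0767).

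Secreted proteins outside the milk list included some of the largest differences. Lao1 encodes an L-amino acid oxidase that produces hydrogen peroxide in mouse milk, and it was at 874, 205 and 634 FPKM in JNK KO glands, against 35.5, 15.2 and 10.2 FPKM in JNK WT glands (locus chr4:118961578-118968912). The Lao1 difference was 4.77 on the log2 scale (SE 0.55, adjusted p = 0.00433) and 5.27 after scaling (adjusted p = 0.00932). On day 0 it had been at 1651, 1958 and 1809 FPKM in JNK KO glands, against 1024, 1927 and 2209 FPKM in JNK WT glands, so the lowest day 0 library lay above the highest day 3 library. Pip, the prolactin-inducible protein, was at 31.5, 134 and 44.6 FPKM in JNK KO glands, against 1.76, 2.25 and 0.22 FPKM in JNK WT glands (locus chr6:41847549-41852062). The Pip difference was 5.69 on the log2 scale (SE 1.01, adjusted p = 0.0169) and 5.92 after scaling (adjusted p = 0.0304). Its neighbour on chromosome 6, Sval2, was at 1.17, 4.68 and 1.7 FPKM in JNK KO glands, against 0, 0 and 0.23 FPKM in JNK WT glands. The Sval2 difference was 3.90 on the log2 scale (SE 0.97, adjusted p = 0.0368) and 3.42 after scaling (adjusted p = 0.204). Its size depends on the pseudocount because JNK WT libraries 3 and 6 were at 0. As deposited, Lao1 was called in all 12 fits with a library left out, Pip in 9 and Sval2 in 6. With scaling and 1 day 3 library left out, Lao1 was called in 5 of 6 fits and Pip and Sval2 in 0.

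Promoter sequences of the genes called in both fits were looked up in RefSeq (GRCm38.p6, 250 bases before to 50 after the start), which matched 25 of the 36 higher and 10 of the 17 lower genes. Because STAT factors and AP1 act in involution, both strands were searched for the STAT-type motif TTCNNNGAA and the AP1-type motif TGANTCA, each of which reads the same on either strand. The STAT-type letters occurred in 4 of 25 higher promoters (16.0%) and 1 of 10 lower promoters, beside 8.3% of all 32851 promoters. The AP1-type letters occurred in 5 of 25 (20.0%) and 0 of 10, beside 7.81% of all. These are descriptions of the windows and not binding sites. Of the genes with a match, 4 higher ones, chosen because their values are described above, and the 1 lower one are shown, with the motif letters in capitals.
Glycam1 (chr15:103565032-103565331, minus strand; STAT-type, 145 bases before the start): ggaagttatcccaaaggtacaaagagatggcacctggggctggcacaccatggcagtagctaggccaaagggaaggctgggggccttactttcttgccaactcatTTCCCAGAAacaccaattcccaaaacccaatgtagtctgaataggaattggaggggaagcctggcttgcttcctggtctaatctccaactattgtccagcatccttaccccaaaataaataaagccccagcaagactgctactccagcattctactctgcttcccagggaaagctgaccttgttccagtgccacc
Pip (chr6:41847299-41847598, plus strand; STAT-type at 140 and 42 and AP1-type at 79 bases before the start): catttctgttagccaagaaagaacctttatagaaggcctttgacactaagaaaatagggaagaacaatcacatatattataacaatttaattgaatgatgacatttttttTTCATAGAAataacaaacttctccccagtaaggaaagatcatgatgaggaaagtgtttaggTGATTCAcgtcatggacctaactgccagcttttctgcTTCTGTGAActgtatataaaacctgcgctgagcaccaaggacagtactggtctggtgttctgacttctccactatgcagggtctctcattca
Lao1 (chr4:118961717-118962016, plus strand; AP1-type, 70 bases before the start): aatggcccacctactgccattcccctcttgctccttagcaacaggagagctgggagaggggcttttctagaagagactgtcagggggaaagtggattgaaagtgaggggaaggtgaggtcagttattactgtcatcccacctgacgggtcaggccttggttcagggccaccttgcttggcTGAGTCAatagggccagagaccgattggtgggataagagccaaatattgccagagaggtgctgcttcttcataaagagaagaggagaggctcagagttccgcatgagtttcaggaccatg
Olah (chr2:3366520-3366819, minus strand; AP1-type, 115 bases before the start): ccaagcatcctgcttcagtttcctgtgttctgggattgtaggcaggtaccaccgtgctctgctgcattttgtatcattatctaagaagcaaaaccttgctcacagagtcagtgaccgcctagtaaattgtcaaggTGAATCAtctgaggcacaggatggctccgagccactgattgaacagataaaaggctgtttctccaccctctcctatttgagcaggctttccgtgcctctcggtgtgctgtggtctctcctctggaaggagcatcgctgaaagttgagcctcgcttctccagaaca
Rnase1 (chr14:51146718-51147017, minus strand; STAT-type, 56 bases before the start): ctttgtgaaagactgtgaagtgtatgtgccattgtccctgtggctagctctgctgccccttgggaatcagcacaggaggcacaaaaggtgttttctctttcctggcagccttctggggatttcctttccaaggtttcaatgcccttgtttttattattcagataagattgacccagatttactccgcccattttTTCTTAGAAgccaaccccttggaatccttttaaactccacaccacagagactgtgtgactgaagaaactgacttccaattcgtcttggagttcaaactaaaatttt

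Of 17 genes for the transport of ions, minerals and water into milk, 4 were higher and 1 was lower as deposited, with a median of 0.67, and 3 were higher and 1 lower after scaling, with a median of 1.15. Aqp3, a channel for water and glycerol, was at 6.92, 9.44 and 8.97 FPKM in JNK KO glands, against 1.58, 0.948 and 1.56 FPKM in JNK WT glands (locus chr4:41092722-41098183). The Aqp3 difference was 2.57 on the log2 scale (SE 0.33, adjusted p = 0.00555) and 2.95 after scaling (adjusted p = 0.0034). Abcg2, the transporter that concentrates riboflavin and drugs in milk, was at 65.1, 33.8 and 56 FPKM in JNK KO glands, against 17.8, 15 and 16 FPKM in JNK WT glands. The Abcg2 difference was 1.61 on the log2 scale (SE 0.32, adjusted p = 0.0225) and 2.11 after scaling (adjusted p = 0.0235). Slc30a2, which loads zinc into secretory vesicles, was at 18.2, 16.8 and 26.2 FPKM in JNK KO glands, against 6.06, 7.13 and 7.69 FPKM in JNK WT glands. The Slc30a2 difference was 1.52 on the log2 scale (SE 0.29, adjusted p = 0.0192) and 2.01 after scaling (adjusted p = 0.00932). No JNK KO library of these 3 genes overlapped a JNK WT library. The folate receptor gene Folr1 was at 565, 426 and 592 FPKM in JNK KO glands, against 227, 266 and 185 FPKM in JNK WT glands and passed as deposited (log2 difference 1.23, adjusted p = 0.0232) but not after scaling (1.74, adjusted p = 0.0602). Outside the lists, the gap junction genes Gjb2 and Gjb1 are described because they were called in both fits. Gjb2, connexin 26, was at 187, 311 and 281 FPKM in JNK KO glands, against 65.3, 56 and 43 FPKM in JNK WT glands (log2 difference 2.23, adjusted p = 0.024). Gjb1, connexin 32, was at 22.6, 14.1 and 24.6 FPKM in JNK KO glands, against 6.15, 4.63 and 3.37 FPKM in JNK WT glands (log2 difference 2.09, adjusted p = 0.0131). Both passed after scaling (adjusted p = 0.0139 and 0.0235).

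Of 16 genes for the milk fat globule and lactose synthesis, 1 was higher and 0 were lower, with a median of 0.04 as deposited and 0.55 after scaling. The higher gene, Cidea, which coats lipid droplets in brown fat and in lactating mammary epithelium, was at 179, 121 and 124 FPKM in JNK KO glands, against 82.4, 63.3 and 57.3 FPKM in JNK WT glands (log2 difference 1.05, adjusted p = 0.0302, and 1.56 after scaling, adjusted p = 0.0847). Of 24 genes for fatty acid and triglyceride synthesis 0 were higher and 1, Dgat2, was lower, beside 5.62% of all tested genes. Dgat2, which makes triglyceride, was at 12.4, 16.5 and 14.6 FPKM in JNK KO glands, against 85, 37 and 62.2 FPKM in JNK WT glands. The Dgat2 difference was -2.01 on the log2 scale (SE 0.35, adjusted p = 0.0166) and -1.49 after scaling (adjusted p = 0.0851). Of 21 cholesterol synthesis genes 0 were called and 1 was lower at an unadjusted p under 0.05, with a median of 0.06.

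**Figure D3:**
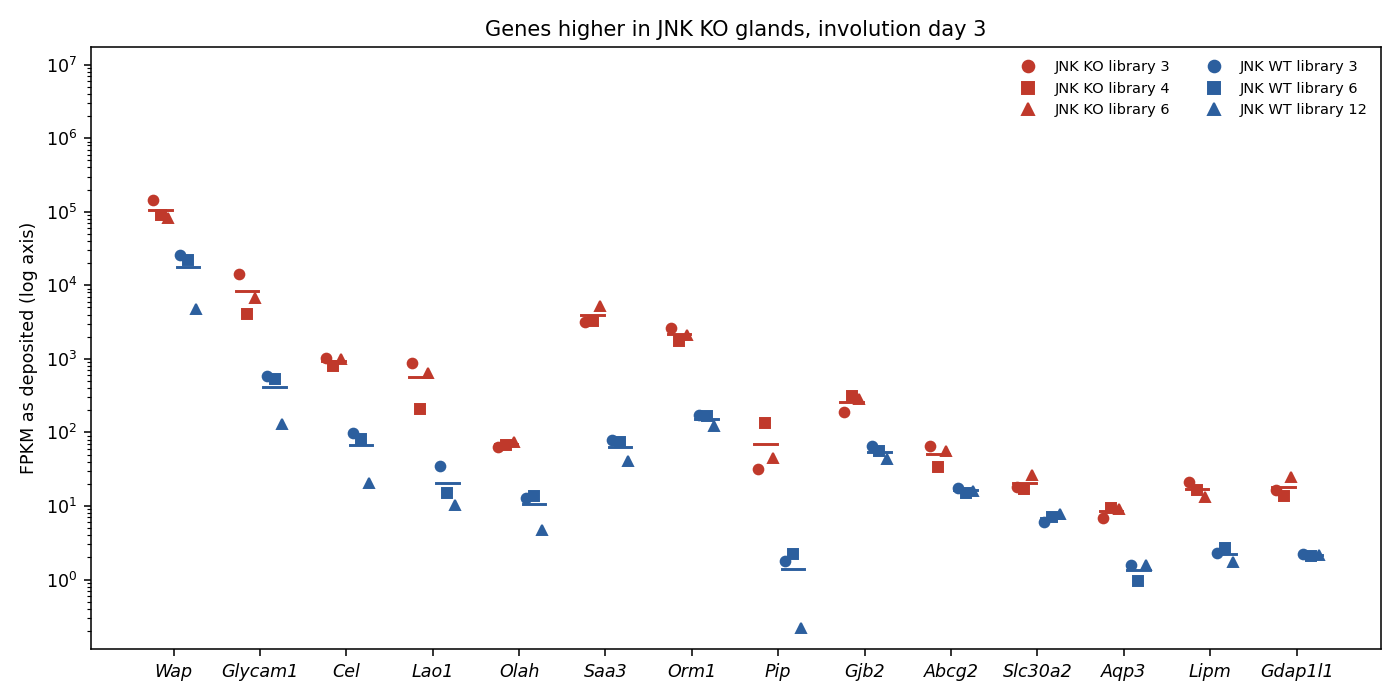
FPKM of 14 genes higher in JNK KO glands, as deposited, on a log axis. Points are libraries and bars are group means, with JNK KO left of JNK WT. No gene shown has a JNK KO library below a JNK WT library, and JNK WT library 12 is the lowest of its group for Wap, Glycam1, Cel, Lao1, Olah, Saa3, Orm1, Pip, Gjb2 and Lipm.

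A few acute phase genes had large differences with a wide spread between libraries. Of 23 STAT3-linked and acute phase genes, 2 were higher and 1 was lower, with a median of 0.42 as deposited and 0.92 after scaling. Saa3, serum amyloid A3, was at 3217, 3221 and 5283 FPKM in JNK KO glands, against 78.6, 73.4 and 40.8 FPKM in JNK WT glands (locus chr7:46711998-46715676). The Saa3 difference was 5.94 on the log2 scale (SE 1.41, adjusted p = 0.032) and 6.45 after scaling (adjusted p = 0.0887). Already on day 0 it was at 1436, 53.9 and 4.67 FPKM in JNK KO glands, against 7.01, 4.11 and 3.91 FPKM in JNK WT glands, so the JNK KO libraries already differed widely from each other before involution. Orm1, an acid glycoprotein of the acute phase, was at 2612, 1739 and 2110 FPKM in JNK KO glands, against 174, 166 and 123 FPKM in JNK WT glands. The Orm1 difference was 3.80 on the log2 scale (SE 0.69, adjusted p = 0.0178) and 4.31 after scaling (adjusted p = 0.0304). Saa1 was at 6413, 7754 and 11680 FPKM in JNK KO glands, against 1001, 968 and 595 FPKM in JNK WT glands (log2 difference 3.33, adjusted p = 0.104) and Saa2 at 6498, 7024 and 10650 FPKM in JNK KO glands, against 595, 605 and 335 FPKM in JNK WT glands (log2 difference 3.99, adjusted p = 0.0891). Reads of these near-identical paralogs may be split between them, so their levels are uncertain. The lower gene, Cd14, the lipopolysaccharide co-receptor, was at 426, 543 and 452 FPKM in JNK KO glands, against 1258, 1252 and 1524 FPKM in JNK WT glands. The Cd14 difference was -1.51 on the log2 scale (SE 0.27, adjusted p = 0.0177) and -0.99 after scaling (adjusted p = 0.108). Socs3, a feedback inhibitor that STAT3 induces, was at 14.6, 16.1 and 14.4 FPKM in JNK KO glands, against 11.1, 10.9 and 29.1 FPKM in JNK WT glands and overlapped between the genotypes.

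Of 14 neutrophil genes listed, 5 passed the filter and were tested. S100a8 and Padi4 were called higher and none was called lower, with a median of 0.43. At an unadjusted p under 0.05 in limma, 2 were higher and 1 was lower as deposited. In 1 gene every JNK KO library was below every JNK WT library as deposited, as in 43.9% of all tested genes, and in 0 after scaling. S100a8, a subunit of calprotectin, was at 117, 371 and 248 FPKM in JNK KO glands, against 17.1, 21.3 and 15.9 FPKM in JNK WT glands. The S100a8 difference was 3.61 on the log2 scale (SE 0.83, adjusted p = 0.03) and 4.11 after scaling (adjusted p = 0.0847). S100a9, the other calprotectin subunit, was at 0, 3.59 and 2 FPKM in JNK KO glands, against 0.354, 1.96 and 0.543 FPKM in JNK WT glands (adjusted p = 0.949) and overlapped. Padi4, a histone-modifying enzyme of neutrophils, was at 3.65, 1.68 and 2.23 FPKM in JNK KO glands, against 0.291, 0.562 and 1.09 FPKM in JNK WT glands (log2 difference 1.88, adjusted p = 0.0402, and 2.14 after scaling, adjusted p = 0.0887). The chemokine gene Ccl28, which the lactating epithelium secretes to attract antibody-producing cells, was at 1.62, 1.36 and 1.35 FPKM in JNK KO glands, against 0.378, 0.331 and 0.105 FPKM in JNK WT glands (log2 difference 2.14, adjusted p = 0.02, and 2.17 after scaling, adjusted p = 0.0846).

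Further genes called higher in both fits belonged to several classes. Lipm, of the acid lipase family, was at 21.5, 16.3 and 13.2 FPKM in JNK KO glands, against 2.28, 2.72 and 1.73 FPKM in JNK WT glands. The Lipm difference was 2.86 on the log2 scale (SE 0.33, adjusted p = 0.00433) and 3.28 after scaling (adjusted p = 0.00932). Gdap1l1 was at 16.7, 13.6 and 24.4 FPKM in JNK KO glands, against 2.2, 2.08 and 2.19 FPKM in JNK WT glands. The Gdap1l1 difference was 2.98 on the log2 scale (SE 0.51, adjusted p = 0.0148) and 3.41 after scaling (adjusted p = 0.0304). The antimicrobial peptide gene Defb1 was at 2.24, 1.13 and 2.9 FPKM in JNK KO glands, against 0.124, 0.162 and 0.431 FPKM in JNK WT glands (log2 difference 2.70, SE 0.45, adjusted p = 0.0141), and the gamma-glutamyl transferase gene Ggt1 was at 92.4, 41.1 and 62.6 FPKM in JNK KO glands, against 21, 17.8 and 17.2 FPKM in JNK WT glands (log2 difference 1.73, SE 0.43, adjusted p = 0.0367). All 4 separated the genotypes in every library.

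Skeletal muscle genes made up the most extreme lower calls. Of 45 sarcomere genes 37 were lower and 0 higher as deposited, with a median of -5.32, and of 53 muscle metabolism and calcium genes 46 were lower and 0 higher, with a median of -4.72. After scaling 1 of the 98, Actc1, passed the test, and the medians were -4.43 and -3.93. Tnnc2, the fast-muscle troponin C, was at 0.108, 0.0573 and 31.1 FPKM in JNK KO glands, against 1932, 1899 and 122 FPKM in JNK WT glands. The Tnnc2 difference was -9.57 on the log2 scale (SE 2.19, adjusted p = 0.0299) and -8.76 after scaling (adjusted p = 0.114). Its size depends on the pseudocount because JNK KO libraries 3 and 4 were near 0. Actc1, cardiac actin, was at 0, 0.0657 and 0 FPKM in JNK KO glands, against 7.71, 7.25 and 1.07 FPKM in JNK WT glands, and its fitted difference of -5.10 (adjusted p = 0.00505) depends on the pseudocount because 2 JNK KO libraries were at 0. The muscle genes of the lists accounted for 83 of the 815 lower calls (10.2%). A wider set of 171 lower genes was at least 4 times as high in both JNK WT libraries 3 and 6 as in JNK WT library 12, a pattern that 260 of all tested genes had, and 96 of the 171 lay outside both muscle lists.

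The largest lower differences outside the muscle lists had the same pattern. Fitm1, a lipid droplet protein of muscle, was at 0, 0 and 0.516 FPKM in JNK KO glands, against 50.5, 40 and 3.22 FPKM in JNK WT glands. Hrc, a calcium-binding protein of the sarcoplasmic reticulum, was at 0.0245, 0.0354 and 1.01 FPKM in JNK KO glands, against 48.2, 44 and 3.63 FPKM in JNK WT glands. Trim72, a membrane repair protein of muscle, was at 0, 0.0471 and 0.565 FPKM in JNK KO glands, against 23.4, 16.8 and 1.88 FPKM in JNK WT glands. Ppp1r27, Dhrs7c, Ank1, Camk2a, Tmem233, Nrap and Myh8 were also named by the rule, with log2 differences between -6.75 (Ppp1r27) and -5.45 (Myh8). These sizes depend on the pseudocount because JNK KO libraries 3 and 4 were at or near 0. JNK WT library 12 was the lowest of its group in each. The exception was Mir27b, a microRNA gene model, listed at 0 in all 3 JNK KO libraries and at 19.2, 15.1 and 28.7 FPKM in JNK WT glands, for which no fold is given. Of the 27 respiratory chain subunits 7 were lower and 0 higher as deposited and 0 after scaling, with medians of -0.75 and -0.24. Sdhb, of complex II, was at 37.7, 47.4 and 47 FPKM in JNK KO glands, against 112, 105 and 83.7 FPKM in JNK WT glands (log2 difference -1.18, SE 0.21, adjusted p = 0.0175), and JNK WT libraries 3 and 6, which hold the most muscle, were the highest. Among 23 enzymes of glycolysis and the pentose phosphate pathway, 4 were lower, of which Pfkm, Pgam2 and Eno3 are the muscle forms. With the mean sarcomere level of each library as a covariate in limma, 0 genes were called in either direction. In that fit 89 higher and 1313 lower genes had an unadjusted p under 0.05. On day 3 this covariate was lower in every JNK KO library than in every JNK WT library. The fit therefore cannot separate muscle content from genotype, and the loss of calls does not show that muscle accounts for the differences.

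Across all classes 17 genes were lower in both fits, among them the sarcomere gene Actc1. Socs2, a cytokine-induced inhibitor of growth hormone and prolactin signalling, was at 2.91, 3.07 and 3.65 FPKM in JNK KO glands, against 17.3, 13.4 and 15.4 FPKM in JNK WT glands (locus chr10:95385362-95417180). The Socs2 difference was -2.22 on the log2 scale (SE 0.23, adjusted p = 0.00209) and -1.69 after scaling (adjusted p = 0.00932). Socs2 was also the only member called after scaling among 10 genes of the prolactin and STAT5 axis, of which Wnt4 was lower too as deposited (-1.81, adjusted p = 0.0268). Pttg1, securin, which holds sister chromatids together until anaphase, was at 4.24, 3.36 and 3.28 FPKM in JNK KO glands, against 33.3, 30.2 and 30.7 FPKM in JNK WT glands (locus chr11:43420250-43426251). The Pttg1 difference was -3.09 on the log2 scale (SE 0.28, adjusted p = 0.00177) and -2.55 after scaling (adjusted p = 0.0301). It was the only one of 22 cell cycle and replication genes to be called, where the median was 0.28 as deposited and 0.72 after scaling. On day 0 Pttg1 was at 0.52, 0.423 and 0.467 FPKM in JNK KO glands, against 5.74, 3.4 and 2.8 FPKM in JNK WT glands. Slc5a8, a sodium-coupled transporter of lactate and short-chain fatty acids, was at 2.65, 3.46 and 4.57 FPKM in JNK KO glands, against 49.2, 48 and 26.1 FPKM in JNK WT glands (locus chr10:88885992-88929505). The Slc5a8 difference was -3.47 on the log2 scale (SE 0.45, adjusted p = 0.00555) and -2.93 after scaling (adjusted p = 0.0103). On day 0 it was under 1 FPKM in every library, at 0.513, 0.403 and 0.409 FPKM in JNK KO glands, against 0.133, 0.409 and 0.792 FPKM in JNK WT glands.

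Cyp24a1, the enzyme that inactivates vitamin D, was at 0.645, 2.21 and 3.04 FPKM in JNK KO glands, against 20, 26 and 13 FPKM in JNK WT glands. The Cyp24a1 difference was -3.44 on the log2 scale (SE 0.48, adjusted p = 0.00699) and -2.88 after scaling (adjusted p = 0.0235). Rnase1, a secreted ribonuclease, was at 5.99, 8.24 and 7.49 FPKM in JNK KO glands, against 42.8, 46.2 and 36.2 FPKM in JNK WT glands (locus chr14:51145002-51146767). The Rnase1 difference was -2.52 on the log2 scale (SE 0.34, adjusted p = 0.00645) and -1.99 after scaling (adjusted p = 0.0385). Cdkn1c, the cell cycle inhibitor p57, was at 1.46, 1.58 and 2.26 FPKM in JNK KO glands, against 9.21, 7.27 and 7.7 FPKM in JNK WT glands. The Cdkn1c difference was -2.15 on the log2 scale (SE 0.28, adjusted p = 0.00555) and -1.60 after scaling (adjusted p = 0.0304). Each of these was called as deposited in all 12 fits with a library left out, as were Socs2, Pttg1 and Slc5a8. With scaling and 1 day 3 library left out, Socs2 and Slc5a8 were called in 2 of 6 fits. Pttg1 and Cyp24a1 were called in 1 of these 6. No gene was called lower with scaling when JNK KO library 6, JNK WT library 3 or JNK WT library 6 was left out. Khdrbs3, an RNA-binding protein, was at 14.2, 21.8 and 25.6 FPKM in JNK KO glands, against 71, 75.8 and 68.8 FPKM in JNK WT glands. The Khdrbs3 difference was -1.85 on the log2 scale (SE 0.26, adjusted p = 0.00699) and -1.33 after scaling (adjusted p = 0.0103). In Rnase1, Cdkn1c, Khdrbs3 and Socs2 the 3 JNK WT libraries lay close together, including library 12, whereas Dmpk, a kinase best known from muscle, had 2.61, 5.03 and 6.96 FPKM in JNK KO glands, against 53.4, 45.9 and 21.3 FPKM in JNK WT glands, with less in library 12. The remaining genes of the 17 were Pcp4l1, Mmd2, Epm2a, Htra1, Plod2, Gpt, Cpq, Atp6v1c2 and Actc1. Htra1, a secreted serine protease, was at 9.99, 16.1 and 22.5 FPKM in JNK KO glands, against 60.5, 43.6 and 84.6 FPKM in JNK WT glands (log2 difference -1.98, SE 0.33, adjusted p = 0.0134, and -1.46 after scaling, adjusted p = 0.0292), and Plod2, a lysyl hydroxylase that prepares collagen for cross-linking, was at 1.6, 2.86 and 2.43 FPKM in JNK KO glands, against 12.1, 6.9 and 13 FPKM in JNK WT glands. The Plod2 difference was -2.15 on the log2 scale (SE 0.34, adjusted p = 0.0123) and -1.62 after scaling (adjusted p = 0.0279).

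**Figure D4:**
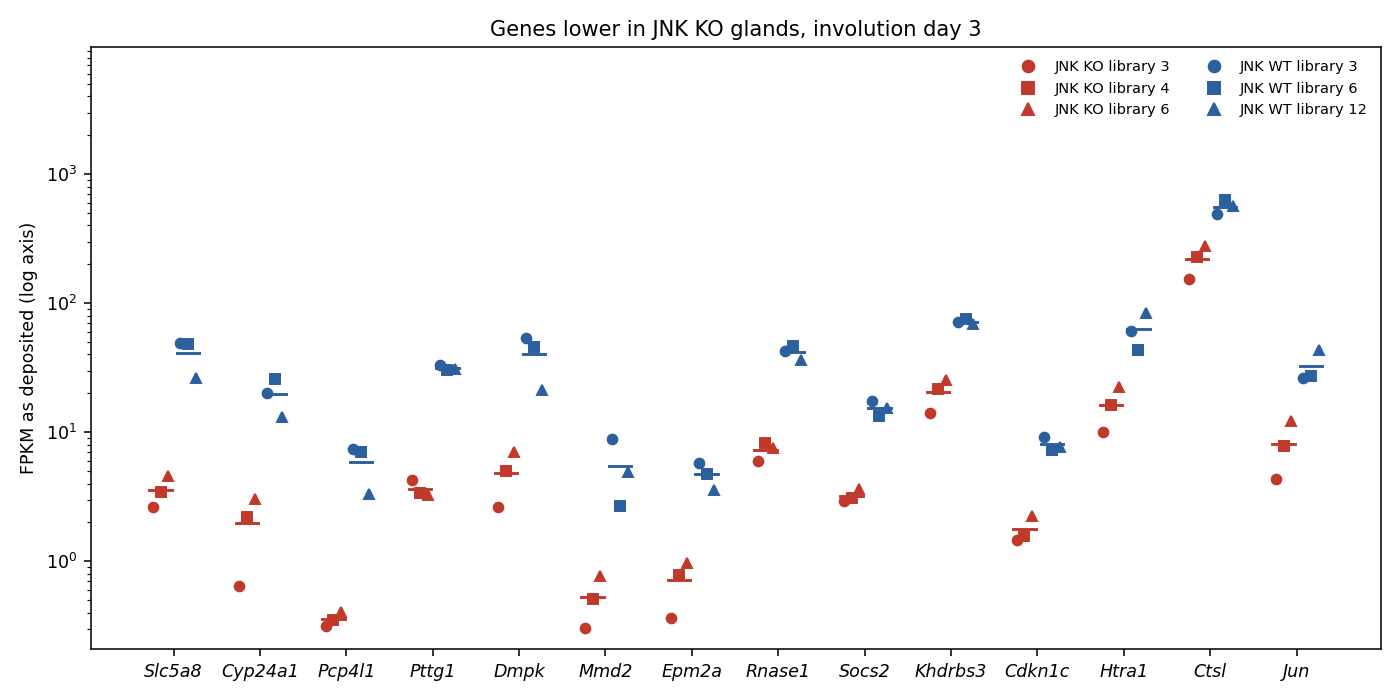
FPKM of 14 genes lower in JNK KO glands, as deposited, on a log axis, with points for libraries, bars for group means and JNK KO left of JNK WT. The genotypes do not overlap in any of them, an order that 43.9% of all tested genes had as deposited. Socs2, Pttg1 and Rnase1 are tight within each genotype, while Slc5a8, Dmpk and Pcp4l1 are lower in JNK WT library 12 than in JNK WT libraries 3 and 6.

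Some protease genes were called lower as deposited, where 5.62% of all tested genes were called lower. After scaling no cathepsin or matrix metalloproteinase was called. Of 11 cathepsins, lysosomal proteases that help to execute the death of secretory cells, 0 were higher and 3 were lower, with a median of -0.90 as deposited and -0.39 after scaling. Ctsl was at 153, 229.6 and 279 FPKM in JNK KO glands, against 492, 626 and 565 FPKM in JNK WT glands (locus chr13:64363214-64370306). The Ctsl difference was -1.38 on the log2 scale (SE 0.26, adjusted p = 0.0189) and -0.87 after scaling (adjusted p = 0.0911). Ctsb was at 150.4, 238 and 272 FPKM in JNK KO glands, against 461, 525 and 729 FPKM in JNK WT glands. The Ctsb difference was -1.39 on the log2 scale (SE 0.29, adjusted p = 0.0231) and -0.88 after scaling (adjusted p = 0.0871). Ctsk, the collagen-degrading cathepsin of osteoclasts and fibroblasts, was at 4.62, 9.66 and 12.4 FPKM in JNK KO glands, against 16.4, 25.2 and 51.3 FPKM in JNK WT glands. The Ctsk difference was -1.74 on the log2 scale (SE 0.47, adjusted p = 0.0497) and -1.22 after scaling (adjusted p = 0.205). In all 3 every JNK KO library was below every JNK WT library, as in 43.9% of all tested genes as deposited. None was called after scaling. Of 28 lysosomal genes 2 were lower and 0 higher as deposited, with a median of -0.47 as deposited and 0.04 after scaling. The lower genes included Hexa, which encodes a lysosomal sugar-cleaving enzyme, with a difference of -1.49 (adjusted p = 0.049).

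Of 12 matrix metalloproteinases 1 was lower and 0 were higher, beside 5.62% of all tested genes called lower as deposited. The median of the list was -0.87 as deposited and -0.36 after scaling. Mmp9, a gelatinase of immune and stromal cells, was at 0.373, 0.571 and 1.12 FPKM in JNK KO glands, against 2.18, 2.74 and 5.06 FPKM in JNK WT glands. The Mmp9 difference was -2.14 on the log2 scale (SE 0.47, adjusted p = 0.0257) and -1.56 after scaling (adjusted p = 0.145). Mmp2 was at 8.34, 17.7 and 33.3 FPKM in JNK KO glands, against 41.5, 48 and 127 FPKM in JNK WT glands (adjusted p = 0.11). Mmp11 was at 0.644, 2.23 and 3.45 FPKM in JNK KO glands, against 5.65, 7.13 and 22.6 FPKM in JNK WT glands (adjusted p = 0.059). Mmp14 was at 10.3, 18.9 and 24.6 FPKM in JNK KO glands, against 36.1, 33.2 and 106 FPKM in JNK WT glands (adjusted p = 0.136). For these 3 stromal proteases JNK WT library 12 was the highest by far, and JNK WT libraries 3 and 6 lay nearer to the JNK KO libraries. Mmp3 was at 3.13, 40.4 and 28.3 FPKM in JNK KO glands, against 35.5, 41.1 and 157 FPKM in JNK WT glands (adjusted p = 0.185) and overlapped. Of 15 ADAM and ADAMTS proteases 0 were called, and 5 were lower at an unadjusted p under 0.05. Among 18 protease inhibitors Wfdc18, Serpine2 and Cst3 were lower, and Timp2 was at 76.7, 55.6 and 89.6 FPKM in JNK KO glands, against 112, 133 and 175 FPKM in JNK WT glands (adjusted p = 0.0896). Wfdc18, a whey-type protease inhibitor of mammary epithelium, was at 903, 1162 and 616 FPKM in JNK KO glands, against 5054, 9188 and 2328 FPKM in JNK WT glands. The Wfdc18 difference was -2.46 on the log2 scale (SE 0.59, adjusted p = 0.0326) and -1.95 after scaling (adjusted p = 0.246).

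Of 23 AP1 and immediate early factors 1 was lower and 0 were higher, beside 5.62% of all tested genes called lower as deposited. The median of the list was -0.56 as deposited and -0.05 after scaling, close to the medians of all genes. Jun, the AP1 subunit that JNK phosphorylates, was at 4.32, 7.79 and 12.2 FPKM in JNK KO glands, against 26.4, 27.4 and 43.1 FPKM in JNK WT glands (locus chr4:95049034-95167318). The Jun difference was -2.07 on the log2 scale (SE 0.45, adjusted p = 0.0251) and -1.55 after scaling (adjusted p = 0.0927). Atf3 was at 1.34, 4.19 and 5.33 FPKM in JNK KO glands, against 9.89, 9.62 and 17.6 FPKM in JNK WT glands (log2 difference -1.89, adjusted p = 0.0881). Jund was at 37.3, 23.9 and 35.6 FPKM in JNK KO glands, against 56.9, 50.5 and 73 FPKM in JNK WT glands (log2 difference -0.90, adjusted p = 0.125). Both missed the threshold. Neither overlapped between the genotypes, but 43.9% of all tested genes had every JNK KO library below every JNK WT library as deposited. Fos was at 19.3, 14.8 and 25.8 FPKM in JNK KO glands, against 19.4, 20.3 and 25.8 FPKM in JNK WT glands. Junb was at 33.2, 44.6 and 47.1 FPKM in JNK KO glands, against 32.1, 27.4 and 59.8 FPKM in JNK WT glands. Fosl2 was at 6, 9.56 and 11.8 FPKM in JNK KO glands, against 12, 11.3 and 15.3 FPKM in JNK WT glands, and all 3 overlapped between the genotypes.

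Genes of cell death showed no call in either direction. Of 9 BH3-only genes, 8 BCL2 guardians and effectors and 23 death receptors and caspases, 0 were called by limma, with medians of -0.53, -0.59 and -0.24 as deposited. At an unadjusted p under 0.05, 0 of these were higher and 1, 1 and 3 of the lists' members were lower. Bik, a pro-apoptotic BH3-only gene, was at 2.72, 8.2 and 7.46 FPKM in JNK KO glands, against 9.12, 9.66 and 12.3 FPKM in JNK WT glands (log2 difference -0.89, SE 0.41, adjusted p = 0.201). Bcl2l11, which encodes BIM, was at 1.99, 5.66 and 5.34 FPKM in JNK KO glands, against 5.38, 5.59 and 8.57 FPKM in JNK WT glands (log2 difference -0.68, SE 0.43, adjusted p = 0.329). Bnip3, a mitochondrial member also induced by hypoxia, was at 5.94, 22.3 and 15.3 FPKM in JNK KO glands, against 41.4, 37 and 33.6 FPKM in JNK WT glands (log2 difference -1.55, SE 0.47, adjusted p = 0.0736). JNK KO library 3 had the lowest level of all 3, and after scaling their differences were -0.38, -0.18 and -1.03.

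Of 18 white adipocyte markers 5 were lower and 0 higher as deposited, beside 5.62% of all tested genes called lower. The median of the list was -1.68 as deposited and -1.16 after scaling, when 0 were called. Adipoq, the adipocyte hormone adiponectin, was at 34.3, 89 and 72.6 FPKM in JNK KO glands, against 235, 125 and 349 FPKM in JNK WT glands (log2 difference -1.84, adjusted p = 0.0378), and Plin1, the coat protein of large lipid droplets, was at 10.3, 24.5 and 24.8 FPKM in JNK KO glands, against 94.1, 38.6 and 125 FPKM in JNK WT glands. The Plin1 difference was -2.06 on the log2 scale (SE 0.51, adjusted p = 0.0352) and -1.54 after scaling (adjusted p = 0.115). Pck1, which feeds glycerol synthesis in fat, was at 7.98, 55.5 and 40.9 FPKM in JNK KO glands, against 298, 121 and 359 FPKM in JNK WT glands. The Pck1 difference was -3.15 on the log2 scale (SE 0.62, adjusted p = 0.0211) and -2.64 after scaling (adjusted p = 0.0626). The summed list was 1689, 4606 and 3261 FPKM in JNK KO glands, against 8726, 5195 and 12110 FPKM in JNK WT glands. It did not overlap, but 43.9% of all tested genes had every JNK KO library below every JNK WT library as deposited. Ucp1, the marker of brown fat, was near 0 in 5 libraries and at 13.1 FPKM in JNK WT library 3.

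Mast cell genes were lower in 4 of 6 cases, with a median of -1.75 as deposited and -1.22 after scaling. Over all tested genes 5.62% were called lower as deposited. Cma1, a mast cell chymase, was at 1.8, 6.34 and 5.88 FPKM in JNK KO glands, against 15.6, 19.5 and 17.2 FPKM in JNK WT glands. The Cma1 difference was -2.06 on the log2 scale (SE 0.43, adjusted p = 0.0234) and -1.54 after scaling (adjusted p = 0.122). Mcpt4, another chymase, was at 2.14, 8.08 and 5.28 FPKM in JNK KO glands, against 16.7, 20.9 and 18.9 FPKM in JNK WT glands (log2 difference -2.03, SE 0.45, adjusted p = 0.0257), and the tryptase Tpsb2 at 1.37, 6.18 and 4.63 FPKM in JNK KO glands, against 10.6, 13.7 and 14.2 FPKM in JNK WT glands (log2 difference -1.87, SE 0.46, adjusted p = 0.0361). These 3 genes were level across the JNK WT libraries, with or without muscle, and lowest in JNK KO library 3. Of 9 Schwann cell and nerve markers 4 were lower, with a median of -1.61 and -1.07 after scaling. Ngfr, the low-affinity neurotrophin receptor, was at 0.0376, 0.122 and 0.164 FPKM in JNK KO glands, against 0.721, 0.765 and 1.21 FPKM in JNK WT glands (log2 difference -2.28, SE 0.35, adjusted p = 0.0103, and -1.53 after scaling, adjusted p = 0.0777). After scaling 0 genes of either list were called.

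Of 18 macrophage markers 0 were called and 8 were lower at an unadjusted p under 0.05, with a median of -1.05 as deposited and -0.54 after scaling, and their sum was 191, 575 and 527 FPKM in JNK KO glands, against 637, 767 and 1429 FPKM in JNK WT glands. Cd68 was at 20.1, 43.6 and 48.1 FPKM in JNK KO glands, against 70.1, 70.3 and 139 FPKM in JNK WT glands (log2 difference -1.34, adjusted p = 0.0584). Of 23 fibroblast and matrix markers Dcn and Dpt were lower, beside 5.62% of all tested genes called lower as deposited. The sum of the list overlapped, at 901, 1268 and 1603 FPKM in JNK KO glands, against 1282, 1465 and 3763 FPKM in JNK WT glands. Dcn, decorin, a collagen-binding proteoglycan, was at 37.5, 83.5 and 122 FPKM in JNK KO glands, against 179, 239 and 332 FPKM in JNK WT glands. The Dcn difference was -1.74 on the log2 scale (SE 0.40, adjusted p = 0.03) and -1.23 after scaling (adjusted p = 0.138). JNK WT library 12, with the least muscle of its group, held the most of the fibroblast, macrophage and adipocyte sums. Cxcl12, a chemokine of stromal cells, was at 9.39, 18.7 and 23.7 FPKM in JNK KO glands, against 39.1, 50.2 and 69.8 FPKM in JNK WT glands (log2 difference -1.68, SE 0.38, adjusted p = 0.0284), and the macrophage chemokine Ccl3 was at 0.395, 2.73 and 2.08 FPKM in JNK KO glands, against 6.53, 5.05 and 12.1 FPKM in JNK WT glands (log2 difference -2.36, SE 0.59, adjusted p = 0.0365).

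Over all tested genes 5.62% were called lower and 0.544% higher as deposited, and the medians were -0.48 as deposited and 0.01 after scaling. Among growth factor lists, 4 of 21 WNT genes were lower and 0 higher, with a median of -1.07 as deposited and -0.55 after scaling. Sfrp5, a WNT inhibitor, was at 0.391, 0.215 and 1.2 FPKM in JNK KO glands, against 3.68, 2.4 and 4.94 FPKM in JNK WT glands (log2 difference -2.63, SE 0.47, adjusted p = 0.0177, and -1.98 after scaling, adjusted p = 0.0602), and Wnt5b was at 7.73, 8.94 and 8.4 FPKM in JNK KO glands, against 25.6, 31.8 and 35.9 FPKM in JNK WT glands. The Wnt5b difference was -1.87 on the log2 scale (SE 0.32, adjusted p = 0.0148) and -1.35 after scaling (adjusted p = 0.145). Of 15 genes of the IGF axis Igf2, Igfbp6 and Htra1 were lower (medians -0.88 and -0.37), of 22 TGF-beta and SMAD genes Ltbp1 and Fst (medians -0.46 and 0.05), and of 7 EGF family ligands and receptors Tgfa and Nrg4 (medians -0.58 and -0.07). Of 21 NRF2 and antioxidant genes Nqo1, a quinone reductase, was higher at 35.2, 25 and 50.4 FPKM in JNK KO glands, against 10.7, 14.4 and 11.1 FPKM in JNK WT glands. The Nqo1 difference was 1.56 on the log2 scale (SE 0.39, adjusted p = 0.0382) and 2.05 after scaling (adjusted p = 0.0816). Gpx3, Cat, Gsta4 and Gstm1 of the same list were lower, with Gpx3, the plasma glutathione peroxidase, at 30.5, 35.6 and 118 FPKM in JNK KO glands, against 310.4, 168 and 266 FPKM in JNK WT glands (log2 difference -2.25, SE 0.48, adjusted p = 0.0246). After scaling Htra1 alone among these growth factor and antioxidant genes was called.

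Several lists had 0 calls by limma in both scalings, and 0 to 6 members at an unadjusted p under 0.05 in either direction as deposited. They were the 33 cytosolic ribosomal proteins (medians 0.17 and 0.68), 22 interferon-stimulated genes (0.13 and 0.59), 19 integrated and ER stress genes (-0.07 and 0.44), 15 NF-kB genes (-0.32 and 0.18), 13 complement genes (-0.82 and -0.31), 9 MHC class II genes (-0.60 and -0.14), 15 endothelial markers (-0.54 and -0.03), 17 luminal markers (-0.41 and 0.10) and 16 housekeeping genes (-0.39 and 0.12). Elf5, the transcription factor of secretory luminal cells, was at 542, 394 and 485 FPKM in JNK KO glands, against 285, 285 and 236 FPKM in JNK WT glands (log2 difference 0.81, adjusted p = 0.109). Its libraries did not overlap, but the difference missed the threshold.

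**Figure D5:**
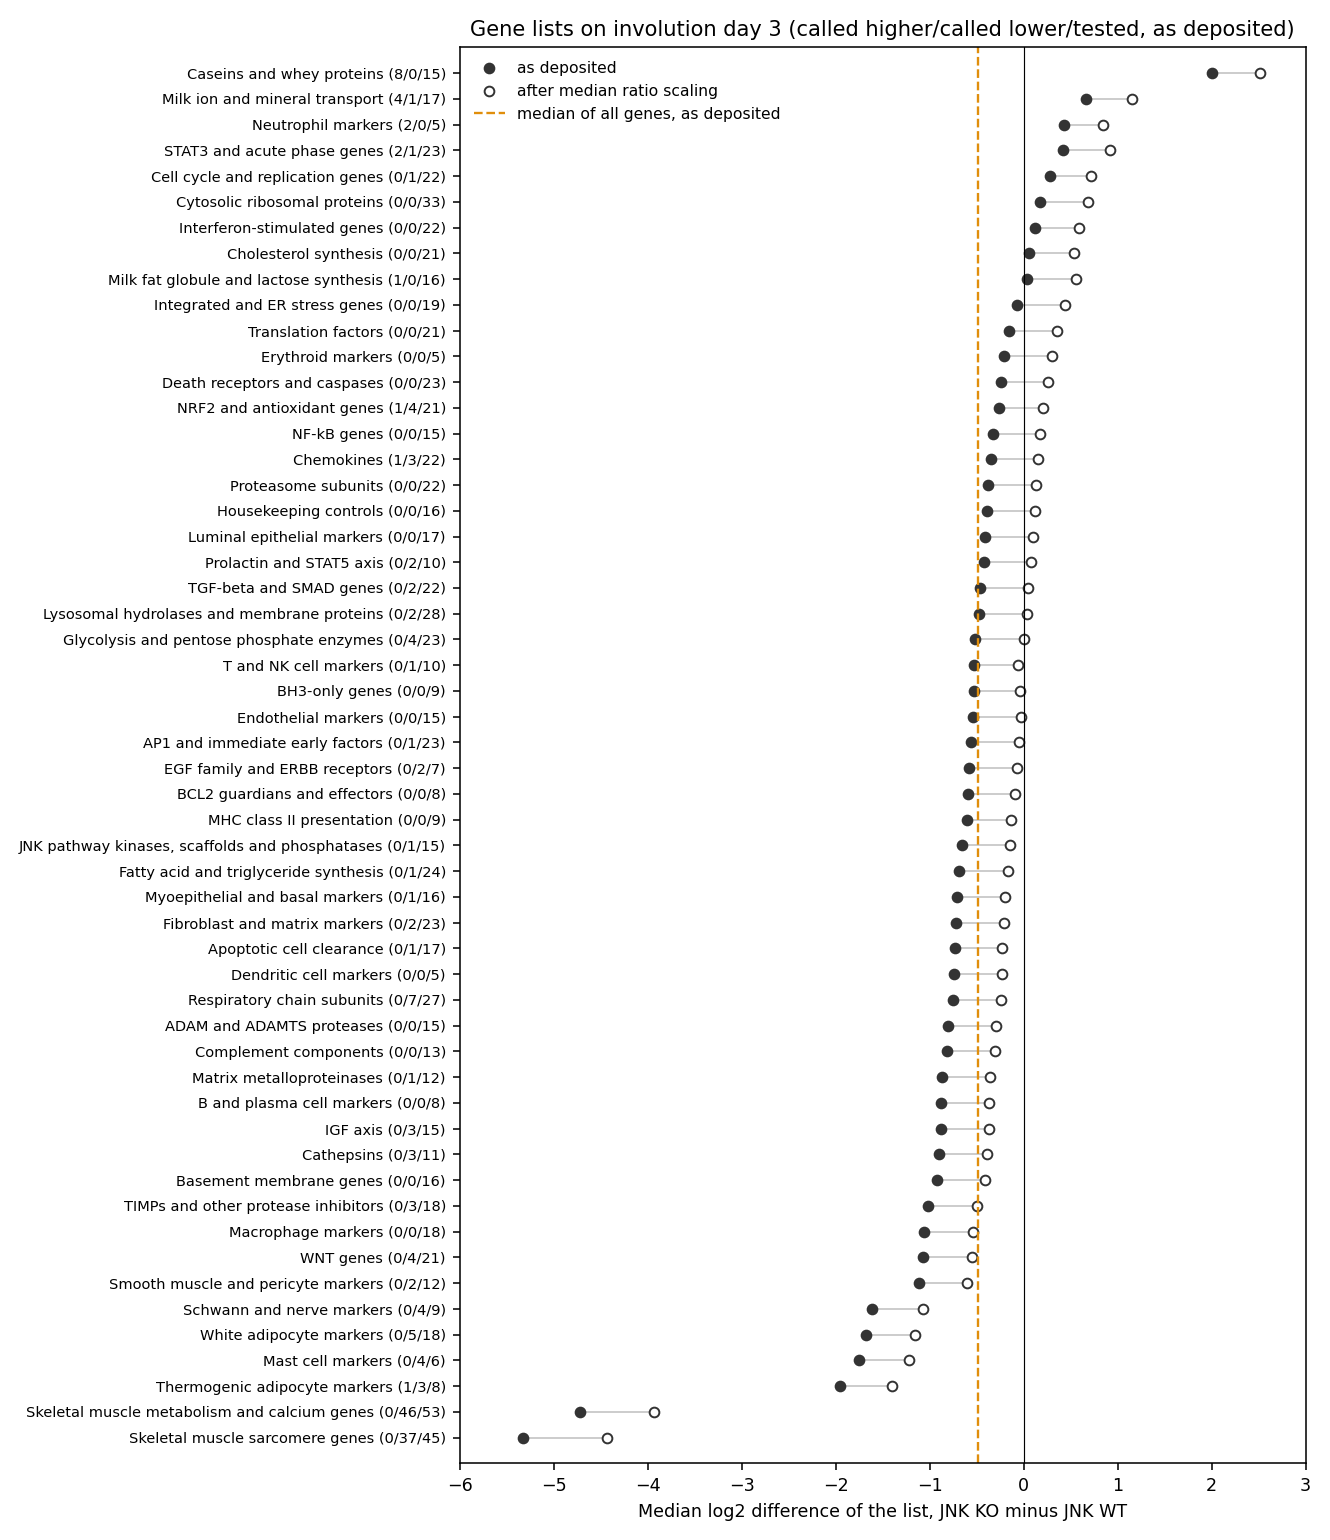
Median log2 difference of each list with at least 5 tested genes, as deposited (filled) and after median ratio scaling (open), with the median of all genes as deposited (-0.48) as a dashed line. The numbers beside each name are the genes called higher, called lower and tested. The casein and whey list lies at 2.01 and 2.52, and the muscle lists lie under -3.9 in both scalings.

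The genotype difference on day 3 was set against that on day 0 in an interaction test, which called 2 genes (0.0138%) as deposited and 2 after scaling, with 2705 and 1887 at an unadjusted p under 0.05. One of them, Gm13381, is an antisense model on the plus strand that overlaps Cel by 1207 bases. It was at 4.9, 5.3 and 3.57 FPKM in JNK KO glands, against 0.238, 0.297 and 0.606 FPKM in JNK WT glands. The Gm13381 difference was 3.34 on the log2 scale (SE 0.33, adjusted p = 0.00186) and 3.47 after scaling (adjusted p = 0.0034). On day 0 it had been at 2.87, 3.57 and 4.53 FPKM in JNK KO glands, against 5.19, 4.61 and 5.69 FPKM in JNK WT glands, with the JNK KO libraries below the JNK WT libraries. No strand setting of the counting is stated, so reads of Gm13381 and Cel cannot be told apart in the overlap.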

How the data were processed

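RNA of whole mammary glands was sequenced in 12 libraries, of which 6 belong to this comparison, and no further sample was left out. Per the submitters' processing notes the authors used TopHat2 2.0.14 with Bowtie2 on GRCm38, and Cufflinks 2.2.1 for the FPKM. The deposited FPKM carry no counts and the study gives read totals as group means alone, so the depth of each library is unknown and no count test was run. Each value of log2(FPKM + 0.1) rests on an unknown number of reads, and limma's standard errors carry the precision. The table also holds columns of the authors' own Cuffdiff comparison of JNK WT glands on day 0 and day 3, which were not used. All 12 library columns were assigned to groups by their names, and 0 columns of library values were left unassigned. Of 37756 gene models 2 carry no FPKM, 24 have symbols turned into dates and 466 combine several symbols.

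limma 3.58.1 in R 4.3.3 fitted 4 group means over all 12 libraries with a mean-variance trend, on genes that reached 0.5 FPKM in 3 or more libraries. The tests were two-sided with Benjamini-Hochberg adjustment. Tables and figures were made with Python 3.11.15, pandas 2.3.3 and matplotlib 3.10.9. The fit was also tested on simulated data built from the gene means and spreads of these libraries. Median ratio scaling took the ratio of each gene to its geometric mean over the libraries, and divided a library's values by the median of these ratios. Other settings changed the pseudocount, filter, scaling, variance model, samples or a muscle covariate, or left out each library in turn.

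Named genes were Mapk8 and Mapk9, the 12 largest higher and lower calls with a mean of at least 1 FPKM and no overlap between the genotypes, the same 12 lower calls outside the muscle lists, the same 8 of each direction after scaling, up to 3 members per list and direction, and genes that the study names on day 3. The rule named 168 genes, of which 3 are left out here and not all others are described singly. List counts and medians include all members tested. The rule leaves out predicted and clone names, and other genes in the text were chosen after their values were seen. The comparison, its members and its lists were chosen with earlier results of these data known. The lists were written from general knowledge, and some genes of the cell type lists are also expressed elsewhere. RefSeq promoters were matched by symbol.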

Additional observations from a re-analysis of the deposited data

Results flagged for a closer look

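The genotype difference on day 3 differed from that on day 0 for 2 genes by limma's interaction test with Benjamini-Hochberg adjustment over 14512 genes. The first is Gm13381, with a day 3 difference minus day 0 difference of 3.849 on the log2 scale (adjusted p = 0.017, and 4.195 after scaling, adjusted p = 0.016). Its JNK KO libraries were all above the JNK WT libraries on day 3 and all below them on day 0. The second is Gm25596, a small nuclear RNA model, with -7.743. It was at 14.6, 38.2 and 17.4 FPKM in JNK KO glands on day 0, against 0, 0 and 0 FPKM in JNK WT glands on day 0, and it was listed at 0 in all 6 libraries of day 3, so the difference lies in the day 0 libraries. The cause of either was not tested.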

How the results depend on the processing

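No paired analysis was possible because the day 3 columns are numbered 3, 4 and 6 for JNK KO and 3, 6 and 12 for JNK WT, which cannot be matched to the labels' replicates 1 to 3. Of the 79 genes higher and 815 lower as deposited, median ratio scaling left 49 and 17, upper quartile scaling 51 and 19, a common total without milk genes and antigen receptor segments 24 and 10, a pseudocount of 1 gave 153 and 2371, a pseudocount of 0.01 gave 38 and 218, library weights 626 and 4210, the muscle covariate 0 and 0, and that covariate with scaling 1 and 0. Settings chosen after seeing the data were the omission of both muscle-rich JNK WT libraries (8 and 1) and the scaled fits below. The study's threshold gave 12 higher genes, and 2 under the common total, 49 and 2 at a pseudocount of 1 and 0.01, 4 with only the 6 day 3 libraries, 180 with library weights, 0 with the covariate, 0 with covariate and scaling, and 5 without the muscle-rich libraries. It gave 22 lower genes, and 1 under median ratio scaling, 2 under upper quartile scaling, 0 under the common total, 482 and 2 at the pseudocounts, 54 with no filter, 4 with only the 6 day 3 libraries, 1204 with weights, 0 with the covariate with or without scaling, and 0 without the muscle-rich libraries. The median of all genes (-0.48) was 0.015 under median ratio scaling, -0.034 under upper quartile scaling, -0.21 under the common total, -0.37 with no filter, -0.29 with weights, -0.75 with the covariate, -0.023 with covariate and scaling, and -0.66 without the muscle-rich libraries. The 2 genotype-by-day calls became 400 at a pseudocount of 1, 19 with no filter, 1 with a stricter filter, 11 without the trend, 168 with weights, 1 with the covariate and 5 without the muscle-rich libraries. The scaled counts of 49 and 17 became 4 and 0 without the muscle-rich libraries, 261 and 156 with only the 6 day 3 libraries, and 1 and 0 with the covariate. Leaving out each library in turn gave 17 to 187 higher and 27 to 2582 lower genes, 1 to 31 and 1 to 204 at the study's threshold, medians of -0.59 to -0.32, and 1 to 304 genotype-by-day calls, and with scaling 3 to 32 higher and 0 to 72 lower genes. The lowest count of lower genes came without JNK WT library 3 and the highest without JNK WT day 0 library 1. Among 104 genes that the rule named and that were called as deposited, the sign turned with the muscle covariate and under no other setting, in Tnnt3 (0.40), Mylpf (0.52), Apobec2 (0.22), Eno3 (0.58), Cox7a1 (0.11) and Des (0.54) as deposited and in Ank1 (0.044), Tmem233 (0.12), Eno3 (0.081), Cox7a1 (0.21) and Des (0.30) with scaling. Of another 61 that the rule named without a call, 26 turned sign under at least 1 setting, 13 of them under median ratio scaling. Of the 104, 82 lost their call under median ratio scaling, 82 under upper quartile scaling, 88 under the common total and 100 without the muscle-rich libraries. The causes of these changes were not tested. FPKM without counts limit what low values can show.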

Other observations

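Neighbouring genes stood among those higher in JNK KO glands, a pattern picked after the values were seen. Lao1 and the predicted gene Gm12863 lie near each other on chromosome 4, and Gm12863 was at 14.8, 3.66 and 9.8 FPKM in JNK KO glands, against 1.51, 1.12 and 0.624 FPKM in JNK WT glands (log2 difference 2.87, adjusted p = 0.0131). The order of the libraries within each genotype was the same for Lao1 and Gm12863, with JNK KO library 4 the lowest of its group. The pairs Pip with Sval2 on chromosome 6 and Cel with Gm13381 on chromosome 2 were likewise both higher.

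Pttg1 lies on chromosome 11, as Mapk9 does, and was called lower in JNK KO glands on day 0 (log2 difference -2.78, limma adjusted p = 0.00281) as well as day 3. Wfdc18, on the same chromosome, was called on day 3 as deposited but not after scaling (adjusted p = 0.246) and not on day 0. Wfdc18 was at 759, 534 and 1984 FPKM in JNK KO glands on day 0, against 7069, 3338 and 2915 FPKM in JNK WT glands on day 0 (log2 difference -2.14, adjusted p = 0.81). The Pttg1 locus starts at 43420250, beside 49846751 for Mapk9 and 83709015 for Wfdc18.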
